A study of Mus musculus with 14 samples.

Results

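The stomach library was set against the other 13 libraries of a small RNA survey of the inbred mouse strain C57BL/6J, in which 14 tissues had 1 library each. The members are every mature miRNA name in the table, 1046 in all, of which 457 had at least 10 RPM (reads per 1000000 reads other than miR-143) in some library and entered the comparison. The stomach library came from the organ labelled stomach, and the others from oesophagus, small intestine, colon, pancreas, liver, kidney, lung, heart, spleen, uterus, ovary, brain and cerebellum. The sources used here name no allele, agent, age or sex for any of the animals. Total RNA of several animals was pooled for each library, so the spread between animals was not measured. Per the labels, 5 mice were harvested but RNA of 10 was pooled, a difference that could not be resolved. Whether the piece of stomach held the forestomach, the glandular part or both was not stated.

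MicroRNAs are short RNAs cut from hairpin precursors, and bases 2 to 8 of the mature strand, the seed, do most of the pairing with target messages. The mouse stomach has a forestomach lined by a keratinised squamous epithelium like that of the oesophagus, and a glandular part with mucous, acid-secreting, enzyme-secreting and hormone-secreting cells. Its wall holds thick layers of smooth muscle and a dense net of enteric neurons. In such tissues miR-143 and miR-145 mark smooth muscle, miR-203 and miR-205 stratified epithelium, the miR-200 family epithelium in general, and miR-375 endocrine cells. Tissue of many cell types was sequenced, so for every name a difference in the number of cells of a type and a difference in RNA per cell cannot be told apart.

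The mature sequences of miRNAs on which the results turn are shown from RefSeq (GRCm38.p6), 5′ to 3′, with the seed in capitals. The first set are the miRNAs of stratified epithelium. Mir31 lies at chr4:88910557-88910662 (minus strand) in an exon of a lincRNA, Mir203 at chr12:112130880-112130955 (plus strand) outside other genes, and Mir205 at chr1:193507463-193507530 (minus strand) in an exon of the lincRNA 4631405K08Rik, by the GENCODE annotation of that build.
miR-31: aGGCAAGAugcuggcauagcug
miR-203: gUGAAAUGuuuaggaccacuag
miR-205: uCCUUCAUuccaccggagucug

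The second set is the miR-200 family, shown because its members fall into 2 seed groups that stood high together in stomach. Mir200b, Mir200a and Mir429 lie within chr4:156053905-156055750 (minus strand) in an intron of Ttll10, and Mir141 and Mir200c within chr6:124717914-124718390 (minus strand). The miR-200b, miR-200c and miR-429 strands share the seed AAUACUG, and miR-200a and miR-141 share AACACUG. The strands of miR-200a and miR-141 differ at 2 of 22 positions.
miR-200b: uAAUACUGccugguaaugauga
miR-200c: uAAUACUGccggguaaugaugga
miR-429: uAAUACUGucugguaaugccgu
miR-200a: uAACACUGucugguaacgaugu
miR-141: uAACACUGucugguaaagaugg

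The third set shows miR-192 and miR-215, which share a seed and differ at 3 of 21 positions, and the neural strands miR-9 and miR-138. It ends with the only names called low in stomach, miR-744 and miR-423-5p, whose hairpins lie in introns of Map2k4 and Nsrp1 on chromosome 11. Their G and C content is 63.6% in miR-744 and 56.5% in miR-423-5p. Among the strands shown that were called above the median, it is 56.5% in miR-138, 54.5% in miR-31 and miR-205, and 34.8% in miR-9. A link between content and level was not tested.
miR-192: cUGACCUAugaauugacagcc
miR-215: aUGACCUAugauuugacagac
miR-9: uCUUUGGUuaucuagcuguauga
miR-138: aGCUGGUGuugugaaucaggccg
miR-744: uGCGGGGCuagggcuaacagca
miR-423-5p: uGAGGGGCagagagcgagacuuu

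The stomach library held 8437011 reads, and the others 622132 (pancreas) to 9341000 (small intestine). miR-143 alone took 70.2% of the stomach reads, with a range of 4.01% (pancreas) to 98.7% (the library labelled colon) elsewhere. Values are therefore scaled to the reads other than miR-143, of which stomach had 2511739. That denominator was only 86545 reads in the library labelled colon and 292350 in ovary, so 1 read is worth 11.6 RPM in the library labelled colon, and 5 of the 457 names entered through it alone. Where no read was found, as many as 3 remain possible, equal to 1.19 RPM in stomach, 34.7 RPM in the library labelled colon and 10.3 RPM in ovary. Intestinal miRNAs stood high in the library labelled uterus and low in the one labelled colon, so both are named by their labels, and counts of called names are also given without them. Intervals below are exact at 95% and reflect counting error alone. No test between tissues was possible with a single library of each, and every difference is one between these libraries.

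The 3 miRNAs that mark tissues of the stomach were abundant in it. Stomach ranked 1 of 14 for the smooth muscle miRNA miR-145, 2 of 14 for miR-203 of squamous lining and 3 of 14 for miR-375 of endocrine cells (4 with median-of-ratios factors and 2 without miR-143 and miR-378 in the totals). After miR-143, the most abundant name was miR-378, a metabolic miRNA encoded within Ppargc1b, at 49.5% (49.5 to 49.6) of the remaining stomach reads by the exact binomial interval. Its 495327 RPM in stomach stood beside a median of 211635 RPM and a highest value of 483700 RPM (library labelled uterus) elsewhere. Stomach was no longer the highest for miR-378 with miR-143 kept in the totals or with median-of-ratios factors, where it ranked 6 of 14, nor without the 5 most abundant names. Next in stomach came let-7f with 7.45% of the reads other than miR-143, let-7c with 5.03%, miR-21 with 3.76%, miR-148a with 3.54% and let-7a with 2.92%. The endothelial miR-126-3p held 2.27%, miR-192 1.81%, miR-203 1.47% and the muscle miRNA miR-1 1.40%. The remaining 4 of the most abundant names were let-7g, miR-101a, miR-10a and let-7b, at 1.16% to 0.926%.

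Most names stood higher in stomach than in the middle of the other libraries. Of the 457 names, 369 (80.7%) were above the median of the other 13, and 64 (14%) were below it. The median name stood 0.92 higher in stomach on the log2 scale, where every ratio is of (RPM + 1), with quartiles of 0.25 and 1.93. Every list of miRNAs below is read against that value, and 15 of the 20 list medians kept a positive sign under the 4 other scalings. The size of the general shift hung on the scaling, at 0.30 with miR-143 kept in the totals and 0.25 with median-of-ratios size factors. Stomach was among the 3 highest libraries for 150 names (32.8%) and the highest of all for 18 (3.94%). At 10 RPM or more, 271 names were present in stomach, against a median of 236 in the other libraries.

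**Figure D1:**
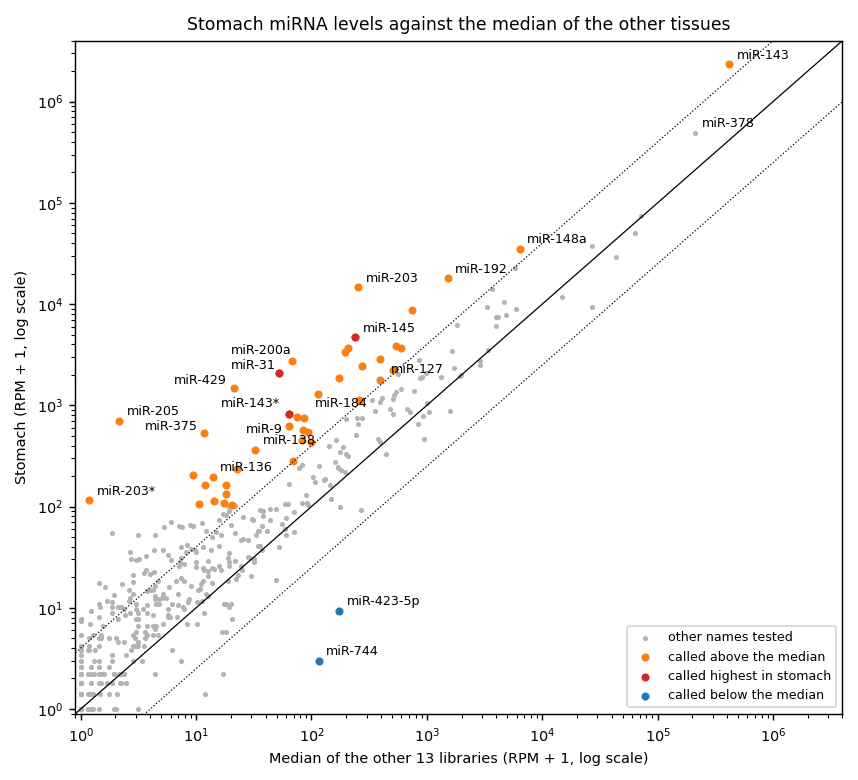
Level of each of the 457 names in the stomach library (vertical) against the median of the other 13 libraries (horizontal), both as RPM + 1 on log axes, with 1 point per name. The solid line marks equality and the dotted lines a 4-fold difference. Red, orange and blue points are called by the size rules, and only miR-744 and miR-423-5p lie far below the line at a median of over 100 RPM.

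A name was called highest in stomach where it reached 100 RPM there and at least 2 times the highest other library. This held for 3 of 457 names (0.656%), miR-145, miR-143* and miR-31. A name was called above the others where it reached 100 RPM in stomach and at least 4 times the median of the other 13, which held for 43 names (9.41%). The opposite rule, a median of at least 100 RPM and a stomach value of at most 0.25 of it, was met by 2 names (0.438%). Without the libraries labelled colon and uterus the counts were 5, 47 and 1. Just inside the limit for the highest names was miR-31 at 2.02-fold, and just outside it miR-199a-5p at 1.38-fold. For the names above the median these were miR-24-2* at 4.11-fold and miR-126-3p at 3.86-fold.

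The 43 names above the median were mostly not at their peak in stomach. Stomach was the highest library for 5 of them, ranked 2 for 13 and 3 for 14. The highest other library was brain for 9, small intestine for 8, the library labelled colon for 7, and oesophagus, cerebellum and the library labelled uterus for 4 each. Of these names 16 were also called with miR-143 kept in the totals, with median-of-ratios factors and without the 5 most abundant names or miR-378 in the totals. Those 16 were miR-145, miR-145*, miR-143*, miR-31, miR-203, miR-205, miR-375, miR-200a, miR-200b, miR-200c, miR-141, miR-429, miR-192, miR-199a-5p, miR-127 and miR-411.

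Smooth muscle miRNAs came first among the names that peaked in stomach. miR-145, which with miR-143 is made from a single transcript and promotes the contractile state of smooth muscle, had 11827 reads and 4709 RPM (4624 to 4794) in stomach. Elsewhere it ran from 8.56 RPM (liver) through a median of 239 RPM to 1085 RPM (small intestine). Stomach was thus 4.34-fold (4.20 to 4.49) above the next library, and oesophagus and the library labelled colon followed at 928 and 924 RPM. miR-143*, the opposite arm of the miR-143 hairpin, had 813 RPM (778 to 849) in stomach, against 0 RPM (pancreas) to 301 RPM (small intestine) with a median of 63.4 RPM. Its ratio to the small intestine was 2.70 (2.52 to 2.90). No other library overlapped the stomach interval for either miRNA.

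The margin of these miRNAs depended on the scaling. With miR-143 kept in the totals, stomach still led but by 1.96-fold for miR-145 and 1.64-fold for miR-143*, each over oesophagus. The opposite arm miR-145* had 540 RPM in stomach and 2045 RPM in the library labelled colon, and 245 RPM or less elsewhere. The library labelled colon holds 177 reads of it, with an interval of 1755 to 2370 RPM, clear of the stomach interval of 512 to 569 RPM. Without the libraries labelled colon and uterus, miR-145* was called highest in stomach as well, at 2.19-fold. miR-143 itself had 501 reads per miR-145 read in stomach, against 320 (oesophagus) to 179533 (ovary) with a median of 2510. The arms of the miR-145 hairpin stood at 8.72 reads of miR-145 per read of miR-145* in stomach, beside a median of 2.94 over the 12 other libraries with reads of both.

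The smooth muscle list holds miR-145, miR-143, miR-28 and their star arms, and also miR-1, miR-133a and miR-133b, which are heart and skeletal muscle miRNAs too. All 9 names were above the median of the others, as were 80.7% of all names. The count was 8 with miR-143 kept in the totals, beside 64.6% of all names, and 7 with median-of-ratios factors, beside 57.7%. The list's median was 1.93 on the log2 scale, against 0.92 over all names tested. The heart and skeletal muscle miRNA miR-1 had 14035 RPM in stomach, against a median of 3691 RPM and 405138 RPM in heart. Its partner miR-133a had 54.1 RPM in stomach and 1946 RPM in heart. The striated muscle list, from which miR-1, miR-133a and miR-133b were left out, had a median of 0.08 (log2). Its members summed to 33.4 RPM in stomach and to 9.92 RPM (small intestine) to 55418 RPM (oesophagus) in the others, with miR-208a-3p and miR-208b at 0 reads in stomach. The skeletal muscle miRNA miR-206 had 30.3 RPM in stomach and 55270 RPM in oesophagus.

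**Figure D2:**
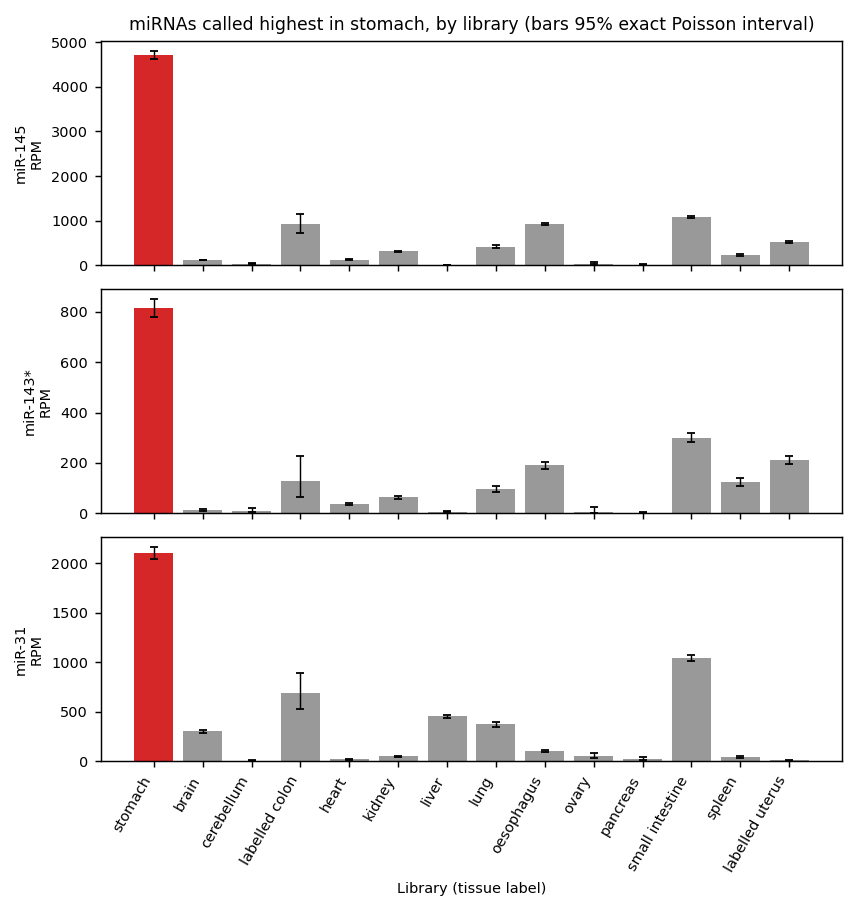
RPM of the 3 names called highest in stomach, in each of the 14 libraries, with stomach in red at the left. Bars start at 0 and error bars are exact 95% Poisson intervals of the counts. For miR-145 the stomach bar stands at 4709 RPM, with small intestine next at 1085 RPM.

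Of the 20 lists, which were chosen with earlier results of these data known, the squamous epithelial list had the highest median. All 6 tested names, among them the opposite arms miR-203* and miR-205*, were above the median, as were 80.7% of all names. The list had a median of 5.59 (log2) against 0.92 over all names. Its members summed to 18423 RPM in stomach, to 26781 RPM in oesophagus and to 94.2 RPM (cerebellum) to 3885 RPM (small intestine) in the remaining libraries. Stomach and oesophagus thus stood apart from the other 12 libraries on this list. Without miR-143 and miR-378 in the totals the sum was 36506 RPM in stomach and 35120 RPM in oesophagus. With miR-143 kept in the totals it was 5485 RPM in stomach and 20649 RPM in oesophagus. Stomach was also below oesophagus with median-of-ratios factors and without the 5 most abundant names. The order stomach below oesophagus held for miR-203, miR-203*, miR-205 and miR-205*, but not for miR-31 or miR-184.

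miR-203, which drives keratinocytes out of the cell cycle as they stratify, had 37044 reads and 14748 RPM (14598 to 14899) in stomach. The others ran from 10.3 RPM (ovary) through a median of 253 RPM to 25352 RPM (oesophagus), with small intestine next at 2792 RPM. The stomach value was 0.582 (0.575 to 0.589) of the oesophagus value. For the opposite arm, miR-203*, the values were 115 RPM (102 to 129) in stomach, 120 RPM in oesophagus and at most 4.85 RPM in any other library. With these totals the stomach and oesophagus values of that arm were within counting error, at a ratio of 0.963 (0.829 to 1.12). With miR-143 kept in the totals the arm was lower in stomach, at 289 of 8437011 reads against 484 of 5251562 in oesophagus. miR-203 was then at 4391 RPM in stomach and 19548 RPM in oesophagus. miR-205, which maintains basal cells of stratified epithelia, had 707 RPM (674 to 740) in stomach and 1171 RPM in oesophagus. It reached 64.5 RPM in the library labelled uterus and 12.8 RPM or less in the remaining 11, with a median of 1.15 RPM over all 13.

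miR-31 is abundant in keratinocytes and in the crypts of the intestine, and its level in stomach was 2103 RPM (2046 to 2160, 5281 reads). In the others it ran from 4.62 RPM (cerebellum) through a median of 51.7 RPM to 1043 RPM in small intestine, 693 RPM in the library labelled colon and 453 RPM in liver. Oesophagus, which led for miR-203 and miR-205, had 106 RPM. The ratio of stomach to small intestine was 2.02 (1.94 to 2.10), so the interval reaches below the 2-fold limit. With median-of-ratios factors miR-31 was at 1020 scaled units in stomach and 1094 in liver, so stomach was no longer the highest. miR-184, known from corneal and other surface epithelia and from brain, had 743.7 RPM (710 to 778) in stomach. It was at 1132 RPM in brain, 556 RPM in pancreas and 13.3 RPM in oesophagus, the lowest of all, with a median of 85.5 RPM.

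The miR-200 family keeps cells epithelial by repressing the transcription factors ZEB1 and ZEB2. All 8 tested names of the list were above the median of the others, as were 80.7% of all names. The list median was 4.31 (log2) against 0.92 over all names. Summed over the family, stomach had 20313 RPM, below small intestine (29912 RPM) and the library labelled uterus (22768 RPM) and above kidney (11973 RPM). Brain, cerebellum, heart and liver had 119 RPM or less. Lung had 8951 RPM and oesophagus 8064 RPM, so stomach ranked 3 of 14. For this sum stomach ranked 5 with miR-143 kept in the totals, and without miR-143 and miR-378 in the totals it ranked 2.

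The family members differed in their place among those organs. miR-200c was the most abundant, with 8736 RPM in stomach, against a median of 735 RPM and 16273 RPM in small intestine. From the same locus miR-141 had 3370 RPM in stomach and 3988 RPM in small intestine, with the next library at 1376 RPM. From the other locus, miR-200b had 3701 RPM in stomach and 5837 RPM in the library labelled uterus. miR-200a had 2722 RPM in stomach and 2751 RPM in kidney, at a ratio of 0.989 (0.962 to 1.02), which is within counting error with these totals. With miR-143 kept in the totals it was lower in stomach, at 6838 of 8437011 reads against 17892 of 9231439 in kidney. miR-429 had 1491 RPM in stomach, against 20.2 RPM at the median and 2023 RPM in kidney, and stood 70.6-fold above the median. That ratio was 29.5 with miR-143 kept in the totals and 14.6 with median-of-ratios factors. It was 5.94 without the libraries labelled colon, ovary and pancreas, and 92.9 without those labelled colon and uterus. The star arms miR-200a* and miR-141* were highest in stomach by a small margin, at 53.7 and 34.2 RPM, with intervals of the ratio to the next library that include 1.

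Endocrine miRNAs stood above the middle of the tissues and were also high in small intestine and the library labelled uterus. miR-375, which is made by pancreatic islets and by endocrine cells of the gut and restrains insulin release in islets, had 1325 reads and 528 RPM (499 to 557) in stomach. The library labelled uterus had 796 RPM, small intestine 533 RPM and pancreas 161 RPM, while the median of the 13 was 10.8 RPM and ovary had no read. Stomach and small intestine were thus close to each other, and stomach was 44.9-fold above the median. miR-7a, a neuroendocrine miRNA, had 453 RPM in stomach, against a median of 162 RPM and 963 RPM in small intestine. miR-7b shares its seed and had 68.9 RPM in stomach, against a median of 5.02 RPM and 541 RPM in cerebellum. All 3 tested names of the list were above the median, as were 80.7% of all names. The list median was 3.54 (log2) against 0.92 over all names. Without the libraries labelled colon and uterus, miR-375 stood 47.9-fold above the median of the 11 left. Its ratio to the median was smaller under other scalings. It was 18.4 with miR-143 kept in the totals, 18.1 with median-of-ratios factors and 26.9 without the 5 most abundant names.

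Intestinal miRNAs were present in stomach at a level far under that of the small intestine. The list holds miR-192, miR-194, miR-215 and their star arms, which depend on hepatocyte nuclear factors in gut, liver and kidney epithelium. All 7 names were above the median, as were 80.7% of all names, and the list had a median of 2.77 (log2) against 0.92. Its sum was 22615 RPM in stomach, 460561 RPM in small intestine, 182802 RPM in the library labelled uterus and 548 RPM (pancreas) to 54268 RPM (liver) in the others, so stomach ranked 5 of 14. miR-192 had 18135 RPM in stomach, against a median of 1514 RPM and 71090 RPM in small intestine. miR-215 had 3864 RPM in stomach and 365682 RPM in small intestine, a ratio of 0.0106 (0.0104 to 0.0108). miR-194 had 571 RPM in stomach and 21996 RPM in small intestine. Stomach thus held 0.255 of the small intestine's miR-192 but 0.0106 of its miR-215, and how reads that fit both strands were assigned is not given in the sources used here.

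The miR-183, miR-96 and miR-182 cluster, known from sensory organs and found in many epithelia, had all 4 tested names above the median. Over all names the share was 80.7%, and the list median was 2.69 (log2) against 0.92. miR-182 was at 3674 RPM in stomach, against a median of 601 RPM and 5315 RPM in the library labelled uterus. miR-183 was at 1852 RPM in stomach and 4075 RPM in oesophagus, with 4 libraries above stomach. In the miR-148 family 4 of 5 names were above the median, a share near the 80.7% of all names, and the list median was 1.76 against 0.92. miR-148a, very abundant in pancreatic acinar cells, had 35354 RPM in stomach, ranking 2 of 14, against 651758 RPM in pancreas and 19001 RPM in liver. Its seed relative miR-152 also ranked 2, at 6241 RPM in stomach and 9150 RPM in pancreas, while miR-148b stayed below the median at 648 RPM in stomach against 835 RPM. The list of acinar miR-216 and miR-217 summed to 64.5 RPM in stomach and 3893 RPM in pancreas.

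Of the fibroblast and mesenchyme list, 7 of 9 tested names were above the median of the others, a share near the 80.7% of all names, with a list median of 1.97 (log2) against 0.92. miR-199a-5p, made in part with miR-214 from a transcript antisense to Dnm3, had 766 RPM (732 to 801) in stomach, against a median of 74.1 RPM, 555 RPM in the library labelled colon and 483 RPM in spleen. Spleen was level with it when miR-143 was kept in the totals, at 228 RPM in stomach and 233 RPM in spleen. miR-199b* had 161 RPM in stomach and 150 RPM in the library labelled colon, within counting error. The strands miR-199a-3p and miR-199b are identical in sequence, so their 2231 and 1132 RPM in stomach cannot be told apart by reads, and for both lung and the library labelled colon stood above stomach. Lung had 2470 and 1248 RPM of these strands. The reads of the 2 names ran in parallel, at 5604 and 2843 in stomach, 7204 and 3639 in oesophagus and 93 and 46 in brain. Both are counted as separate names in the calls and in this list, although they are not independent. miR-21, raised in many growing tissues, was at 37599 RPM in stomach against a median of 26913 RPM. The endothelial pair from Egfl7, miR-126-3p and miR-126-5p, had 22654 and 2782 RPM in stomach, and both ranked 2 of 14, after lung with 71736 and 8651 RPM. The endothelial list sum ranked 2 in stomach too, but 6 with miR-143 kept in the totals and 5 with median-of-ratios factors.

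**Figure D3:**
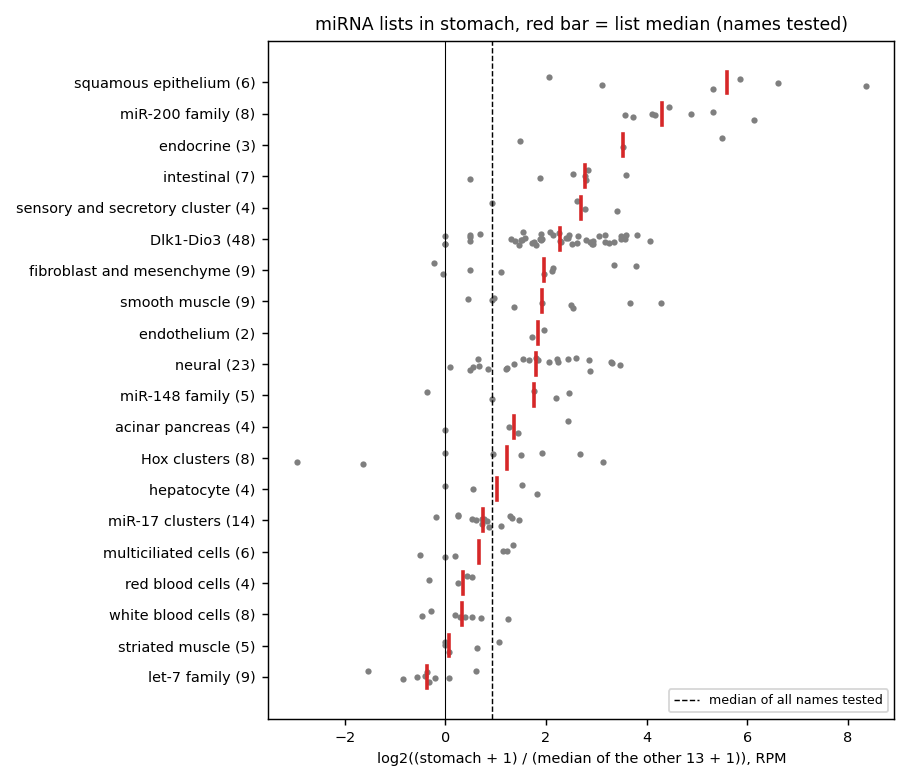
Log2 ratio of (RPM + 1) in stomach to (the median of the other 13 libraries + 1), with 1 grey point per tested name of each list and the number of names in brackets. Red bars mark list medians and the dashed line the 0.92 of all names tested. The squamous list (5.59) and miR-200 family (4.31) lie farthest right. The let-7 family (−0.36) lies left of 0, but at 0.18 without miR-143 and miR-378 in the totals, and the white blood cell, red blood cell and miR-17 medians fall below 0 with miR-143 kept in the totals or with median-of-ratios factors.

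Neural miRNAs were low in stomach beside brain but above the middle of all other libraries. All 23 tested names of the neural list were above the median of the other 13 libraries, as were 80.7% of all names. With median-of-ratios factors 20 of the 23 were above it, beside 57.7% of all names. The list median was 1.80 (log2) against 0.92 over all names. The list summed to 1566 RPM in stomach, the highest of the 12 libraries other than brain (102710 RPM) and cerebellum (68922 RPM), and oesophagus came next at 1396 RPM. Stomach was the highest of those 12 libraries for 10 of the 23 names, while it was so for 71 of all 457 names (15.5%). Of these 10, 6 were among the 15 neural names with at least 10 RPM in stomach. The others rest on few reads, miR-124* on 2. The lead of stomach on this list depended on the scaling. With miR-143 kept in the totals the sum was 466 RPM in stomach and 1077 RPM in oesophagus, and stomach was also below oesophagus with median-of-ratios factors and without the 5 most abundant names in the totals. The count of names led by stomach was then 6, 4 and 9 of 23 under those 3 scalings, while it was 7%, 7.66% and 13.8% over all names.

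miR-9, made in neural progenitors and many neurons, had 1577 reads and 628 RPM (597 to 660) in stomach. It had 66484 RPM in brain and 15403 RPM in cerebellum, and 405 RPM in oesophagus, the highest of the rest, with a median of 63.2 RPM over the 13. Stomach was 1.55-fold (1.45 to 1.66) above oesophagus, but at 187 RPM in stomach and 312 RPM in oesophagus with miR-143 kept in the totals. miR-138, which acts at dendritic spines, had 363 RPM (340 to 387) in stomach, against 12846 RPM in brain, 9602 RPM in cerebellum and 180 RPM in small intestine. The ratio to small intestine was 2.01 (1.83 to 2.22), and stomach led the libraries other than brain and cerebellum under all 4 other scalings, by 1.06-fold to 3.10-fold. miR-9 and miR-138 were the only neural names called above the median. That is 2 of 23, beside 43 of all 457 names (9.41%).

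The neuronal miR-124 had 67.3 RPM (57.5 to 78.2) in stomach, against 21746 RPM in cerebellum, 5878 RPM in brain and a median of 10.2 RPM. The next non-neural value, 46.2 RPM in the library labelled colon, rests on so few reads that its ratio to stomach spans 1. miR-132, induced by neuronal activity, had 56.9 RPM in stomach, against 718 RPM in brain and 34.9 RPM in the library labelled uterus. miR-153, found in synaptic tissue, had 15.1 RPM in stomach and 405 RPM in brain. As a share of the brain level, the 15 neural names with at least 10 RPM in stomach had a median of 3.73%, from 0.944% (miR-9) to 22.1% (miR-212-3p). Against cerebellum the shares were wider, from 0.309% for miR-124 to 282% for miR-137. The share thus varied from name to name.

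**Figure D4:**
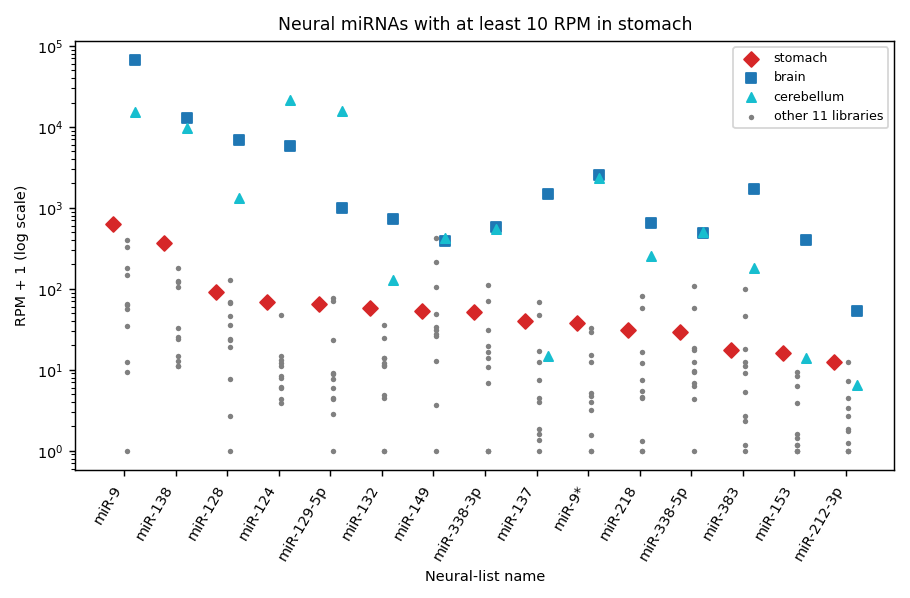
RPM + 1 on a log axis for the 15 names of the neural list with at least 10 RPM in stomach, ordered by their stomach level. Red diamonds are stomach, blue squares brain, triangles cerebellum and grey points the other 11 libraries. With these totals the stomach diamond lies above all grey points for 6 of the 15 names, and below brain for every name, for example 628 RPM in stomach and 66484 RPM in brain for miR-9.

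The Dlk1-Dio3 region on chromosome 12 is an imprinted locus whose maternal copy makes a long row of miRNAs, best known from brain, embryo and muscle. The list used for it leaves out some names of the locus, miR-770-5p among them. Of the 48 tested names of the list, 45 were above the median of the others and none below it, beside 80.7% of all names above it. The list median was 2.27 (log2) against 0.92. The names summed to 8116 RPM in stomach, against 87390 RPM in cerebellum, 53822 RPM in brain, 7121 RPM in oesophagus and 3940 RPM or less in the remaining 10. Stomach was the highest library other than brain and cerebellum for 19 of the 48, while it was so for 15.5% of all names. Some of these leads rest on few reads, such as miR-487b with 7 in stomach. The count of names led by stomach was 5 with miR-143 kept in the totals (7% of all names) and 7 with median-of-ratios factors (7.66%). It was 14 without the 5 most abundant names (13.8%) and 27 without miR-143 and miR-378 (28.4%). With miR-143 kept in the totals the sum was 2416 RPM in stomach and 5491 RPM in oesophagus. The sum was also lower in stomach than in another of those libraries with median-of-ratios factors and without the 5 most abundant names. The largest member was miR-127, at 2867 RPM (2801 to 2934) in stomach, against 51796 RPM in cerebellum, 1604 RPM in oesophagus and a median of 393 RPM, and stood at 854 RPM in stomach and 1237 RPM in oesophagus with miR-143 kept in the totals. miR-411 had 1279 RPM in stomach, 3313 RPM in brain and 1359 RPM in oesophagus, and miR-136 had 196 RPM in stomach, 1159 RPM in brain and 91.9 RPM in oesophagus. miR-136 too was lower in stomach with miR-143 kept in the totals, at 58.3 RPM against 70.8 RPM in oesophagus.

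Set against oesophagus name by name, the Dlk1-Dio3 names went both ways. Stomach was above oesophagus for 27 of the 48 and below it for 20, and over all 457 names it was above for 287 (62.8%). Among those lower in stomach, miR-381 had 164 RPM in stomach and 617 RPM in oesophagus, miR-541 1131 and 1789 RPM, and miR-380-5p 62.1 and 172 RPM. Of the 23 neural names, 18 were above oesophagus and 5 below it, among them miR-149 at 51.8 RPM in stomach and 428 RPM in oesophagus. Which cells gave these names was not tested. Of the 48 tested names of the Dlk1-Dio3 list, miR-431*, miR-667 and miR-668 had 0 reads in stomach. They reached 149.6 RPM (cerebellum), 16.1 RPM and 10.0 RPM (both in brain). Outside the list, miR-412-5p and miR-770-5p also had 0 reads in stomach, and 90 and 65 reads in brain.

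The names called low were far below the median of the other tissues, not near the limit of 0.25 of it. miR-744 had 5 reads in stomach, or 1.99 RPM (0.646 to 4.65), against a median of 115 RPM and a range of 3.02 RPM (liver) to 1609 RPM (cerebellum). miR-423-5p had 21 reads, or 8.36 RPM (5.18 to 12.8), against a median of 173 RPM and a range of 23.3 RPM (brain) to 686 RPM (cerebellum). Stomach was the lowest of the 14 libraries for both, although liver overlapped it for miR-744 within counting error. The other arm of the same hairpin, miR-423-3p, was not low, at 86.4 RPM in stomach against a median of 69.1 RPM, so within this precursor only the 5p arm stood out. The nearest name outside the limit was let-7b, at 0.345 of the median. With miR-143 kept in the totals neither was called, since the median of the others fell under 100 RPM. miR-744 also lost its call without the libraries labelled colon and uterus (median 66.4 RPM), and without those labelled colon, ovary and pancreas (median 90.8 RPM). With miR-143 kept in the totals, the stomach level was 0.04 of the median for miR-744 and 0.05 for miR-423-5p.

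Lists for other cells and organs stayed near or below the general shift. Over all names the share above the median was 80.7%. It was 64.6% with miR-143 kept in the totals, 57.7% with median-of-ratios factors and 79.6% without the libraries labelled colon and uterus. White blood cell names were above the median for 6 of 8 (list median 0.34), but for 2 with miR-143 kept in the totals and 0 with median-of-ratios factors. Their sum was 1692 RPM in stomach, 44135 RPM in spleen and 14278 RPM in lung. Red blood cell names were above for 3 of 4 (0.34), but for 0 under either of those scalings and for 1 without the libraries labelled colon and uterus, and summed to 378.2 RPM in stomach and 8246 RPM in spleen. Hepatocyte names summed to 172 RPM in stomach and 466110 RPM in liver. For multiciliated cells the sum was 666 RPM in stomach and 14554 RPM in lung, with miR-449a at 0 reads in stomach. The part of these cells in the stomach values was not tested.

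Of the Hox cluster miRNAs, which follow position along the body axis, miR-10a and miR-10b were present at 9384 and 2436 RPM in stomach, against medians of 3323 and 276 RPM. The more posterior miR-196a and miR-196b were at 1.19 and 4.78 RPM in stomach, against 2927 and 6681 RPM in kidney. The proliferation-linked miR-17 clusters had 13 of 14 names above the median, beside 80.7% of all names (list median 0.75, below the 0.92 of all names). The count was 5 of 12 with miR-143 kept in the totals (64.6% of all names) and 7 of 14 with median-of-ratios factors (57.7%). For the let-7 family, which promotes differentiation, 2 of 9 names were above the median (list median −0.36). The count was 5 without miR-143 and miR-378 in the totals, where 86.8% of all names were above it. The let-7 sum was 184635 RPM in stomach, against 67479 RPM (heart) to 872786 RPM (ovary) in the others.

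Of the 43 names above the median, 8 belonged to none of the lists. miR-455*, from an intron of the cartilage collagen gene Col27a1, had 233 RPM in stomach, 416 RPM in the library labelled colon and at most 66.6 RPM elsewhere, and was called highest in stomach at 3.47-fold without the libraries labelled colon and uterus. miR-708 had 133 RPM in stomach, 371 RPM in brain and 135 RPM in oesophagus, and miR-326 had 111 RPM in stomach and 805 RPM in brain. The remaining names were miR-582-3p, miR-29b, miR-32, miR-23a and miR-24-2*, at 102 to 1767 RPM in stomach and 4.11-fold to 6.32-fold above the median. Of these 5, miR-23a, miR-24-2* and miR-29b ranked 2 of 14 in stomach.

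The use of hairpin arms was mostly like that of other tissues. Of 97 hairpins with at least 100 RPM over both arms in stomach and in another library, the log2 ratio of the arms in stomach departed from the median of the others by 0.79 at the median. Among the 91 hairpins with 3 or more other libraries, stomach lay outside their range for 12. The widest departure was miR-382 over miR-382*, at 3.48 (log2) in stomach and 7.17 at the median of only 2 other libraries. miR-322 over miR-322* followed, at 5.16 in stomach and 2.92 elsewhere, within the range of the others. For miR-326 the ratio to its star arm was 6.33 in stomach and 8.21 elsewhere, resting on 1 read of miR-326* in stomach.

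Over the 456 names other than miR-143, the stomach profile was nearest to that of the library labelled uterus, with a Spearman rho of 0.906, given as a description across names that are not independent. Small intestine (0.890) and oesophagus (0.886) came next, then lung (0.845). Farthest were brain (0.632) and cerebellum (0.570). Without the libraries labelled colon and uterus, small intestine was thus nearest. Restricted to names with at least 100 RPM in some library, small intestine was also nearest, at 0.881, with the library labelled uterus at 0.874.

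**Figure D5:**
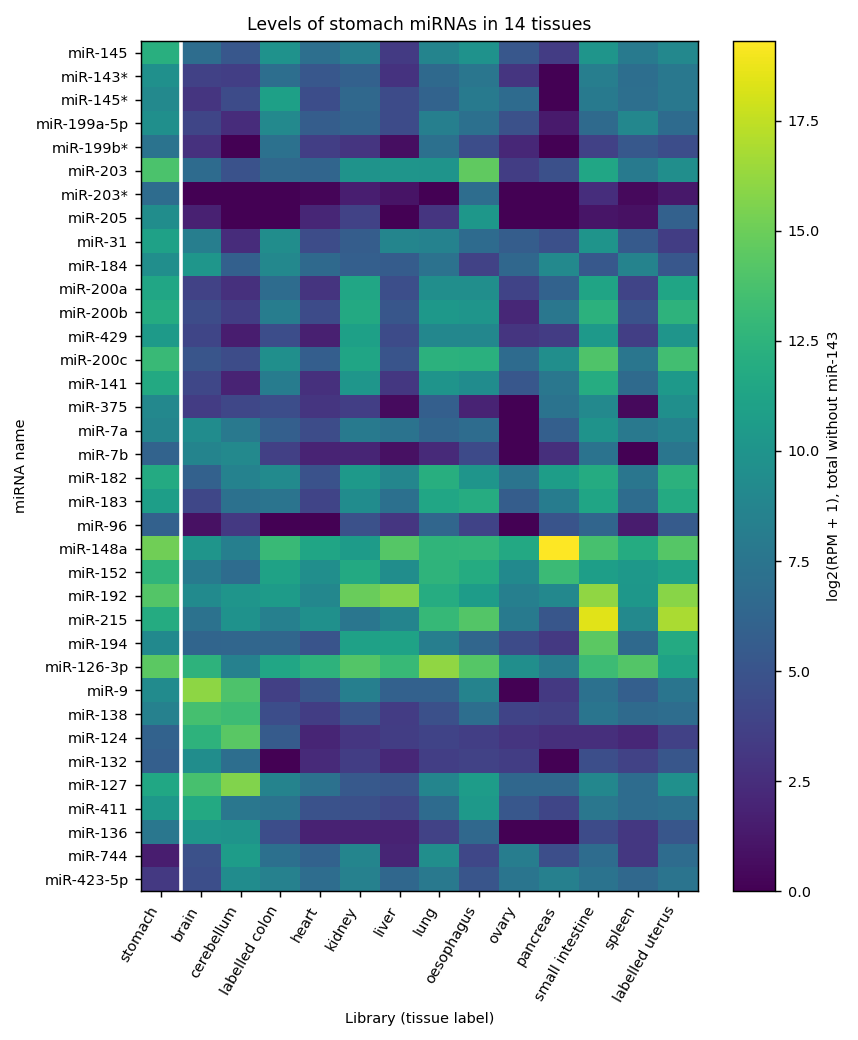
Level of selected names (rows) in the 14 libraries (columns), as log2(RPM + 1) from dark (0 RPM) to yellow, with stomach at the left of the white line. The upper rows show smooth muscle and squamous names that are bright in stomach, the middle rows epithelial, endocrine and intestinal names shared with small intestine or the library labelled uterus, and the last rows miR-744 and miR-423-5p, darkest in stomach at 1.99 and 8.36 RPM.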

How the data were processed

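Small RNA of 14 mouse tissues was sequenced, 1 pooled library each, from Trizol-extracted total RNA with standard Illumina preparation, per the labels' protocols. The table the authors deposited holds unscaled read counts, whole numbers, for each mature miRNA name. Aligner, trimming, miRNA release, genome build and the handling of reads that match several names: not given in the sources used here.

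Counts were divided by the library total without miR-143 and multiplied by 1000000 (RPM), with 1 RPM added in ratios. The 457 names that reached 10 RPM in a library entered the comparison, under the size rules given with the results. Intervals are exact (Poisson for RPM, Clopper-Pearson for shares, conditional binomial for ratios), at 95%. Reads carry no molecular identifiers, so they cover counting error only. The 20 lists hold 227 names, of which 216 were in the table. The named miRNAs are the 3 stomach markers, the 15 most abundant, up to 25 per rule by size of ratio, list members, the 6 hairpins with the most unusual arm ratio, and opposite arms. Names at the limits of a rule, and called names in no list beyond the first 25, were chosen after their values were seen. Members and lists were chosen with earlier results of these data known. Of 39 mature sequences sought in RefSeq (GRCm38.p6), 35 matched. Alternatives covered scaling, libraries left out, pseudocount, minimum level, filter and fold. Python 3.11.15, pandas 2.3.3, numpy 2.4.6 and scipy 1.17.1 were used.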

Additional observations from a re-analysis of the deposited data

How the results depend on the processing

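Several counts depended on the scaling. The names called highest in stomach (3) became 0 with miR-143 kept in the totals and 1 with median-of-ratios factors, 0 with a 5-fold limit, and 5 without brain and cerebellum, without the colon and uterus labels, or without the libraries labelled colon, ovary and pancreas. Those above the median (43) became 23 with miR-143 kept in the totals, 17 with median-of-ratios factors, 78 without miR-143 and miR-378, 90 at a minimum of 10 RPM and 26 at an 8-fold limit. Those below (2) became 5 with median-of-ratios factors, 1 without the libraries labelled colon and uterus and 4 at a minimum of 10 RPM. The median shift of all names, 0.92 (log2), was 0.30, 0.25 and 1.40 with the first 3 scalings named for the names above the median. miR-31 turned round against the highest other library with median-of-ratios factors, at −0.10 (log2), where liver led. Members above the median changed with miR-143 kept in the totals and with median-of-ratios factors to 2 and 0 in place of 6 for white blood cells, 0 and 0 in place of 3 for red blood cells, 5 and 7 in place of 13 for the miR-17 clusters, and 1 and 0 in place of 2 for let-7. Over all names the share above the median was 64.6% and 57.7% under those scalings, in place of 80.7%. Red blood cells gave 1 without the colon and uterus labels, and 1 without the libraries labelled colon, ovary and pancreas. let-7 gave 1 without the 5 most abundant names, 5 without miR-143 and miR-378 or without the libraries labelled colon, ovary and pancreas, and 4 without brain and cerebellum. The neural list gave 15 of 15 in place of 23 of 23 without brain and cerebellum, since fewer names were tested, among them miR-153, which passed the 10 RPM filter only through stomach. The library labelled uterus was nearest by rho (0.906) and by Pearson's r (0.922), but small intestine at a minimum of 100 RPM (0.881). The cause was not tested elsewhere. The other 187 counts of calls and list members stayed within 1.5 times, but some of them could not change. A pseudocount cannot alter list counts, counting identical names once removed no tested name, and names under 10 RPM cannot be called. A similar count can also hold other names. With miR-143 kept in the totals, let-7b, miR-1981 and miR-30c-2* were called below the median, and miR-744 and miR-423-5p were not. Of the ratios of single names under other scalings, 329 moved by more than counting error and 30 did not. No paired analysis was possible because each tissue has 1 library. Depth limits the library labelled colon most.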
